A study of Homo sapiens with 8 samples.

Results

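The transporters described here were 7 genes, *ABCC1*, *ABCC2*, *ABCC3*, *ABCC4*, *ABCC5*, *ABCC10* and *ABCG2*, taken by symbol from a list of efflux pumps for conjugates and drugs. All 7 were found among the 57815 gene identifiers measured. Their expression was examined by RNA-seq in HCC4006 and ABC1, 2 lung adenocarcinoma cell lines labelled as carrying neither *KEAP1* nor *NRF2* mutations. Cells were treated for 16 h with the vehicle DMSO or with 100 μM DEM (diethylmaleate), an electrophile that reacts with thiols and inhibits KEAP1. All groups were grown in low-glucose DMEM with fetal bovine serum. The 4 groups were thus ABC1 with vehicle, ABC1 with DEM, HCC4006 with vehicle and HCC4006 with DEM, each with 2 libraries, and the 2 lines limit how far a value can stand for lung adenocarcinoma.

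The transporters of the ABCC family and ABCG2 are membrane pumps that use ATP to move compounds out of the cell. Many of their substrates are conjugates, that is, drugs, toxins or metabolites that enzymes have coupled to glutathione, glucuronate or sulfate, and the pumps complete the removal of what the enzymes have tagged. NRF2 is a transcription factor that KEAP1 holds at a low level in unstressed cells, and it binds antioxidant response elements near genes for glutathione synthesis, conjugation and export. Several of these pumps are known in cancer cells for lowering the intracellular level of chemotherapeutic drugs.

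The sequences before the transcription start sites were searched for the core of the antioxidant response element, because the treatment acts on the KEAP1-NRF2 system. RefSeq promoter entries on GRCh38.p14 were matched to 5 of the 7 genes (10 entries), and not to *ABCC1* and *ABCC3*. The core searched was TGACNNNGC, on both strands, in the 250 bases before each start. It was found in 3830 of 35116 upstream parts in the table (10.9%), and in 2 of the 10 entries of the transporters. These were 1 entry of *ABCC4* and the second of the 2 entries of *ABCC10*. Another transporter entry, for *ABCG2*, held the core within the 50 bases after the start, and over the 300 bases as a whole the core was found in 4687 entries (13.3%). Shown are the upstream part of *ABCC5* on chr3:184017885-184018134 (minus strand), the transporter with the largest called response to DEM below, and both upstream parts with a match, that of *ABCC4* on chr13:95301452-95301701 (minus strand) and that of *ABCC10* on chr6:43427291-43427540 (plus strand). They are written 5′ to 3′ on the strand of the gene, with the core in capitals. In *ABCC4* the core lay on the opposite strand, so the capitals show its reverse complement.
ABCC5: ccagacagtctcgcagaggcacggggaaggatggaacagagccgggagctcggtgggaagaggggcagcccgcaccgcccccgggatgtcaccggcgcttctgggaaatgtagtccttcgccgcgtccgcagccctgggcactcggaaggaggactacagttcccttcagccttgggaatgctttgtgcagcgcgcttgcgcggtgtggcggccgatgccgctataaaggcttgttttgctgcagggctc
ABCC4: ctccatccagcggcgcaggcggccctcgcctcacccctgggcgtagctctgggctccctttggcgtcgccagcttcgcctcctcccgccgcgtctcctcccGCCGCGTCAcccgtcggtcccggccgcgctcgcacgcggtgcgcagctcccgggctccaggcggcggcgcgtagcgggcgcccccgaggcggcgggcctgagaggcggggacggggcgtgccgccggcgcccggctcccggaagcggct
ABCC10: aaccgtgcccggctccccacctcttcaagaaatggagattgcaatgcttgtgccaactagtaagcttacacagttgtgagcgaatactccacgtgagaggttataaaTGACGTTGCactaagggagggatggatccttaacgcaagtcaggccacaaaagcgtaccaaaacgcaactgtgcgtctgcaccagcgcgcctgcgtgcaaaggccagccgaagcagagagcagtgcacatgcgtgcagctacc
A match of these letters is a description of the sequence and not a binding site.

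The libraries were comparable in their totals. The largest sum of FPKM (fragments per kilobase of exon, scaled to the mapped reads of the library, the unit the authors deposited) exceeded the smallest by a factor of 1.18, and each library had 12515 to 13573 genes at 1 FPKM or more. The depth of each library is unknown, so no interval for counting error is given. All 7 genes listed for the response to treatment (*NQO1*, *GCLM*, *GCLC*, *TXNRD1*, *SRXN1*, *SLC7A11* and *HMOX1*) were called higher with DEM in both lines. They were chosen with earlier results of these data known, so this describes the response and is not an independent check. *SLC7A11*, *GCLC* and *GCLM* are also in the list for glutathione supply below. Of 10 markers of lung adenocarcinoma epithelium, 7 were at 1 FPKM or more in all ABC1 libraries, where *NKX2-1*, *NAPSA* and *SFTPB* were under 1 FPKM, and 9 in all HCC4006 libraries, where *SFTPB* was under 1 FPKM. The summed level of this list was lower with DEM, at 3754 to 4152 FPKM against 5095 to 5898 with vehicle in ABC1, and at 3591 to 3620 against 4545 to 4754 in HCC4006. The summed level of 9 markers of other cell types was 6.81 to 8.77 FPKM in ABC1 and 102 to 116 in HCC4006, and *PTPRC*, *CD3E*, *VWF*, *COL3A1* and *PDGFRB* were under 1 FPKM in every library. A further listed marker, *PECAM1*, was not matched. In both libraries of a group, 2 of the 9 were at 1 FPKM or more in ABC1 and 3 in HCC4006. *ACTA2*, *CD68* and *COL1A1* were called higher by limma in HCC4006 than in ABC1 with vehicle. The part of these levels in the results below was not tested. In these bulk samples, fewer expressing cells and less RNA per cell cannot be told apart.

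The lines differed in which transporter made up most of the set. FPKM is per length, so levels of different genes can be set side by side. *ABCC5*, which exports cyclic nucleotides and nucleotide analogues, held 87.1% to 90.0% of the summed FPKM of the 7 genes in the ABC1 libraries and 5.02% to 7.98% in the HCC4006 libraries. *ABCC3*, a basolateral exporter of glucuronides and bile salts, held 58.9% to 65.3% in HCC4006 and at most 0.479% in ABC1. *ABCC1*, which exports glutathione conjugates such as leukotriene C4, held 21.9% to 24.3% in HCC4006 and 4.52% to 5.10% in ABC1. The summed level with vehicle was 183 ± 9.60 FPKM (SD, n = 2) in ABC1 and 134 ± 7.72 FPKM (SD, n = 2) in HCC4006. With DEM the sum was 255 ± 0.939 FPKM (SD, n = 2) in ABC1 and 220 ± 17.2 FPKM (SD, n = 2) in HCC4006. In both lines the DEM libraries lay above the vehicle libraries, and the sums were not tested.

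**Figure D1:**
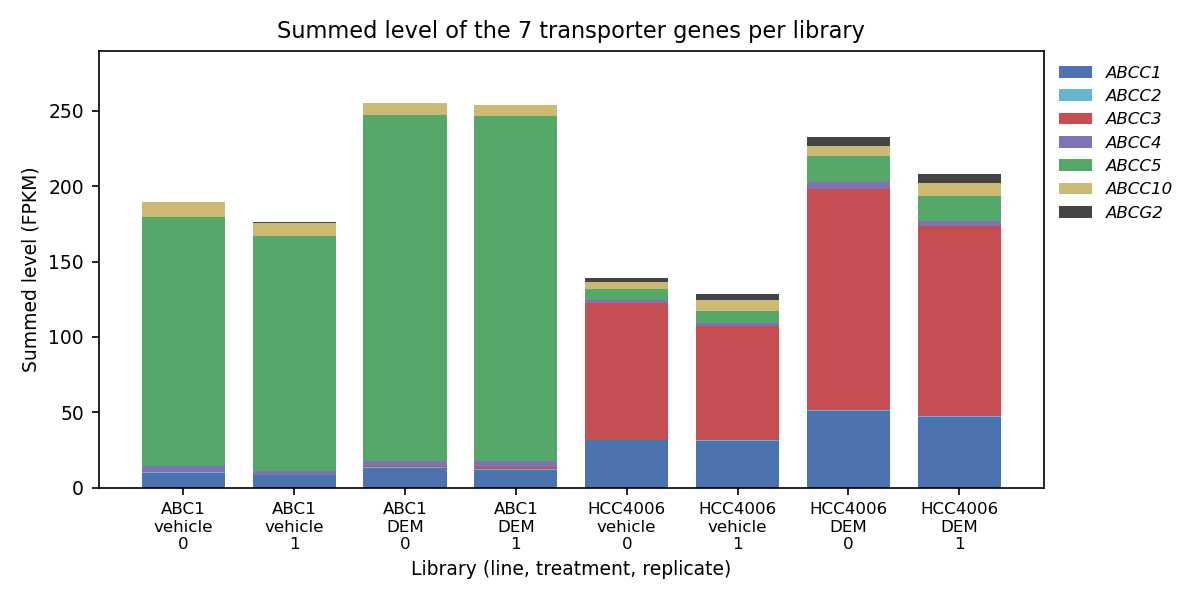
Summed FPKM of the 7 transporters in each of the 8 libraries, stacked by gene on a linear axis from 0. *ABCC5* fills most of each ABC1 bar (87.1% to 90.0%), and *ABCC3* and *ABCC1* fill most of each HCC4006 bar.

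Within ABC1 cells with vehicle, the order of levels was *ABCC5*, *ABCC10*, *ABCC1*, *ABCC4*, *ABCG2*, *ABCC2* and *ABCC3*. Only the neighbours *ABCC10* and *ABCC1* overlapped in their libraries. With DEM, *ABCC1* lay above *ABCC10*, *ABCC2* and *ABCC3* overlapped, and *ABCG2* was the lowest. Within HCC4006 cells with vehicle, the order was *ABCC3*, *ABCC1*, *ABCC5*, *ABCC10*, *ABCG2*, *ABCC4* and *ABCC2*, and only *ABCC5* and *ABCC10* overlapped. The same order was seen with DEM in HCC4006, where no neighbours overlapped. *ABCC2* had the lowest level in HCC4006 under both treatments.

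**Figure D2:**
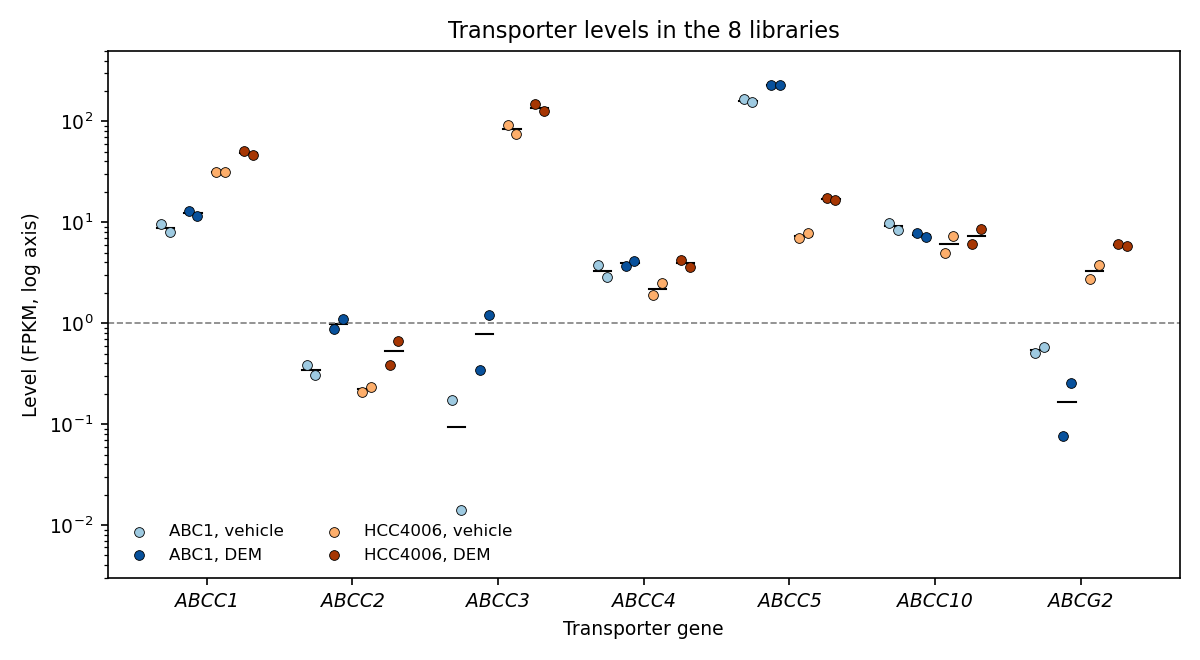
FPKM of each transporter in each library on a logarithmic axis, by line and treatment, with points for the libraries, short bars for the mean of 2 and a dashed line at 1 FPKM. *ABCC5* stands highest in ABC1 and *ABCC3* in HCC4006, and *ABCC2* stays near or under 1 FPKM throughout.

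Comparing the vehicle groups addressed how the lines differ before treatment. *ABCC1*, *ABCC3* and *ABCG2* were higher in HCC4006 and *ABCC5* was higher in ABC1. These 4 calls were made among 6 transporters tested, with limma on log2(FPKM + 1) over genes averaging 1 FPKM or more and Benjamini-Hochberg adjustment over all genes tested. Of all 13747 genes tested, 37.3% were called higher in HCC4006, 30.4% lower and 67.7% in either direction, so a call between the lines was common. The share of all genes whose vehicle libraries did not overlap between the lines was not computed. Such a separation, given for single transporters below, is therefore a description. *ABCC3* and *ABCG2* passed the minimum of 1 FPKM only through HCC4006. A difference on this scale understates the ratio of genes with low FPKM. With 2 libraries against 2, a two-sided p from exact permutation of 1 gene's values is never under 0.333. Each p-value here comes from limma, which sets a difference against the spread between libraries that the methods describe as biological duplicates. The estimate of that spread is partly drawn from the other genes fitted.

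*ABCC1* (ENSG00000103222.14, chromosome 16 of GRCh37 from 16042995 to 16237114) was 9.67 and 8.07 FPKM in the ABC1 vehicle libraries and 31.5 and 31.2 FPKM in the HCC4006 vehicle libraries. The groups did not overlap, and the mean in HCC4006 was 3.53 times that in ABC1. On the log2(FPKM + 1) scale the difference was 1.72 (limma adjusted p = 1.7e-04). *ABCC3* (ENSG00000108846.11, chromosome 17 from 48712138 to 48769614) was 0.172 and 0.0140 FPKM in ABC1 and 90.9 and 75.5 FPKM in HCC4006, so that it was near the lower end of the scale in 1 line and led the transporters in the other. Its log2 difference was 6.27 (limma adjusted p = 8.6e-06).

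*ABCC5* (ENSG00000114770.12, chromosome 3 from 183637722 to 183735727) was 165 and 156 FPKM in the ABC1 vehicle libraries and 6.99 and 7.74 FPKM in those of HCC4006. The mean in ABC1 was 21.8 times that in HCC4006, a log2 difference of -4.27 for HCC4006 minus ABC1 (limma adjusted p = 8.2e-06). *ABCG2* (ENSG00000118777.6, chromosome 4 from 89011302 to 89152780), a pump for urate, sulfate conjugates and drugs such as topotecan, was 0.510 and 0.585 FPKM in ABC1 and 2.72 and 3.81 FPKM in HCC4006. Both HCC4006 libraries lay above both ABC1 libraries, and the log2 difference was 1.45 (limma adjusted p = 0.00115), or 2.36 with a pseudocount of 0.1.

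*ABCC4* (ENSG00000125257.9, chromosome 13 from 95672089 to 95953729), an exporter of cyclic nucleotides and prostaglandins, was 3.80 and 2.84 FPKM in ABC1 and 1.89 and 2.51 FPKM in HCC4006. *ABCC10* (ENSG00000124574.10, chromosome 6 from 43395104 to 43418165), known for export of taxanes, was 9.92 and 8.30 FPKM in ABC1 and 4.94 and 7.26 FPKM in HCC4006. For both genes the ABC1 libraries lay above the HCC4006 libraries without a call, with log2 differences of -0.43 for *ABCC4* (limma adjusted p = 0.0832) and -0.52 for *ABCC10* (limma adjusted p = 0.0599). With scaling by the upper quartile both were called, with limma adjusted p-values of 0.0429 and 0.0282 in the same order, and over all alternatives the adjusted p reached 0.339 and 0.292. Without ABC1 vehicle replicate 0 the difference of *ABCC4* was -0.27, and without HCC4006 vehicle replicate 0 that of *ABCC10* was -0.29. Exons of *DLK2*, on the opposite strand, share 76 bases with the 3′ end of *ABCC10*, and *DLK2* had 0.111 to 0.975 FPKM. *ABCC2* (ENSG00000023839.6, chromosome 10 from 101542397 to 101612351), which exports bilirubin glucuronides into bile in the liver, was 0.388 and 0.304 FPKM in ABC1 and 0.208 and 0.233 FPKM in HCC4006, under the minimum for a test.

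DEM raised 4 of the 6 transporters tested in HCC4006 cells, *ABCC1*, *ABCC3*, *ABCC5* and *ABCG2*, and none was called lower. The largest called change was that of *ABCC5*. Among all 13542 genes tested in HCC4006, 8.45% were called higher, 10.7% lower and 19.1% in either direction (limma with Benjamini-Hochberg adjustment). The median log2 difference of the 6 tested transporters was 0.67, beside -0.03 over all genes tested, and all 6 values were above 0. As the transporters were chosen with earlier results of these data known, these values are a description. In 6 of the 7 genes, 5 of them tested, both DEM libraries lay above both vehicle libraries, which was seen in 29.3% of all genes tested, while 35.3% had both DEM libraries below.

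In HCC4006, *ABCC1* rose from 31.5 and 31.2 FPKM with vehicle to 50.9 and 46.7 FPKM with DEM. The groups did not overlap, and the ratio of means was 1.56. The log2 difference was 0.62 (standard error 0.08, limma adjusted p = 0.00747), with adjusted p-values of 0.00646 to 0.0702 over the alternatives. The call was lost without vehicle replicate 1 (limma adjusted p = 0.05003) and without the expression minimum.

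*ABCC3*, already the highest of the transporters in HCC4006, rose from 90.9 and 75.5 FPKM to 147 and 126 FPKM, a ratio of 1.64. Both DEM libraries exceeded the vehicle libraries by more than the spread within a group. The log2 difference was 0.71 (standard error 0.12, limma adjusted p = 0.0140), and over the alternatives the adjusted p lay between 0.00303 and 0.169. Without DEM replicate 0 (limma adjusted p = 0.0680), without vehicle replicate 1 (0.0605), in a model of all 8 libraries (0.0963) and without the expression minimum (0.169), *ABCC3* was not called.

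*ABCC5* rose in HCC4006 from 6.99 and 7.74 FPKM to 17.6 and 16.6 FPKM, a ratio of 2.32 with well separated groups. The log2 difference was 1.11 (standard error 0.10, limma adjusted p = 0.00319). This call held with each library left out in turn, and over all alternatives the adjusted p was 0.00115 to 0.0531, the highest without the expression minimum. Even with DEM, the level of *ABCC5* in HCC4006 stayed below that of both ABC1 vehicle libraries.

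*ABCG2* rose in HCC4006 from 2.72 and 3.81 FPKM to 6.09 and 5.85 FPKM, a ratio of 1.83. The vehicle libraries differed more from each other than the DEM libraries did, and the groups did not overlap. The log2 difference was 0.72 (standard error 0.16, limma adjusted p = 0.0332), with a range of 0.0314 to 0.198 over the alternatives. The call was lost without vehicle replicate 0 (limma adjusted p = 0.120), without DEM replicate 0 (0.126), without DEM replicate 1 (0.104) and without the expression minimum (0.198).

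The other 3 transporters were not called in HCC4006. *ABCC4* was 1.89 and 2.51 FPKM with vehicle and 4.20 and 3.60 FPKM with DEM, without overlap, and its log2 difference of 0.62 (standard error 0.17) was close to the threshold (limma adjusted p = 0.0518, range 0.0488 to 0.232 over the alternatives). It was called with scaling by the median of ratios (limma adjusted p = 0.0494) or by the upper quartile (0.0488). *ABCC10* was 4.94 and 7.26 FPKM with vehicle and 6.14 and 8.56 FPKM with DEM, the only transporter whose groups overlapped in HCC4006, and its log2 difference was 0.24 (standard error 0.21, limma adjusted p = 0.458). This value depended on single libraries, at 8.9e-04 without vehicle replicate 0, 0.03 without DEM replicate 1, 0.45 without DEM replicate 0 and 0.48 without vehicle replicate 1. *ABCC2* was 0.208 and 0.233 FPKM with vehicle and 0.387 and 0.673 FPKM with DEM, under the minimum for a test. Without that minimum its log2 difference was 0.32 (limma adjusted p = 0.326).

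In ABC1 cells, none of the 4 transporters tested was called by limma in either direction, while 0.768% of all 12635 genes tested were called higher, 0.435% lower and 1.2% in either direction. *ABCC1* and *ABCC5*, 2 of the 4, had p under 0.05 before adjustment, as did 2771 of all genes tested. The median log2 difference of these 4 was 0.31, beside -0.02 over all genes, again as a description. *ABCC2*, *ABCC3* and *ABCG2* were under the minimum of 1 FPKM. Both DEM libraries lay above both vehicle libraries in 4 of the 7 genes, *ABCC1*, *ABCC2*, *ABCC3* and *ABCC5*, and below them in 2, *ABCC10* and *ABCG2*. Among the 4 tested genes, 2 lay above (*ABCC1* and *ABCC5*) and 1 below (*ABCC10*). Over all genes tested these shares were 25.5% above and 28.2% below.

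*ABCC5*, the leading transporter of ABC1, was 165 and 156 FPKM with vehicle and 230 and 229 FPKM with DEM. The groups did not overlap, with a ratio of means of 1.43. The log2 difference was 0.51 (standard error 0.12, 95% confidence interval 0.21 to 0.81), and the limma adjusted p was 0.1002, with a range of 0.00758 to 0.421 over the alternatives. It was called in a model of all 8 libraries (limma adjusted p = 0.0165), and with the replicate number as a block (0.00758), although nothing in the labels pairs the numbers. *ABCC1* was 9.67 and 8.07 FPKM with vehicle and 12.9 and 11.5 FPKM with DEM, a ratio of 1.38, and its log2 difference of 0.42 had a 95% confidence interval of 0.05 to 0.80 (limma adjusted p = 0.187).

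*ABCC4* was 3.80 and 2.84 FPKM with vehicle and 3.67 and 4.15 FPKM with DEM in ABC1, with overlapping groups and a log2 difference of 0.19 (limma adjusted p = 0.594), which was 0.03 to 0.35 with a library left out. *ABCC10* was 9.92 and 8.30 FPKM with vehicle and 7.85 and 7.11 FPKM with DEM, so that its DEM libraries lay lower, with a log2 difference of -0.25 (limma adjusted p = 0.388), or -0.14 without vehicle replicate 0. *ABCC2* was 0.388 and 0.304 FPKM with vehicle and 0.868 and 1.09 FPKM with DEM, a ratio of 2.83. Without the expression minimum its log2 difference was 0.56 (limma adjusted p = 0.254).

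*ABCC3* was 0.172 and 0.0140 FPKM with vehicle and 0.340 and 1.22 FPKM with DEM in ABC1, and the DEM libraries differed from each other by more than the lower one differed from the vehicle libraries. *ABCG2* was 0.510 and 0.585 FPKM with vehicle and 0.0763 and 0.258 FPKM with DEM, the opposite order to that in HCC4006. Without the expression minimum the log2 differences were 0.66 for *ABCC3* (limma adjusted p = 0.576) and -0.41 for *ABCG2* (limma adjusted p = 0.321). These genes were close to the lower end of detection in ABC1. The base mean, which is the authors' average over all 4 libraries of a line after scaling, was 9.25 for *ABCC3*, 13.5 for *ABCG2* and 55.8 for *ABCC2* in ABC1, against 13151 for *ABCC5*.

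**Figure D3:**
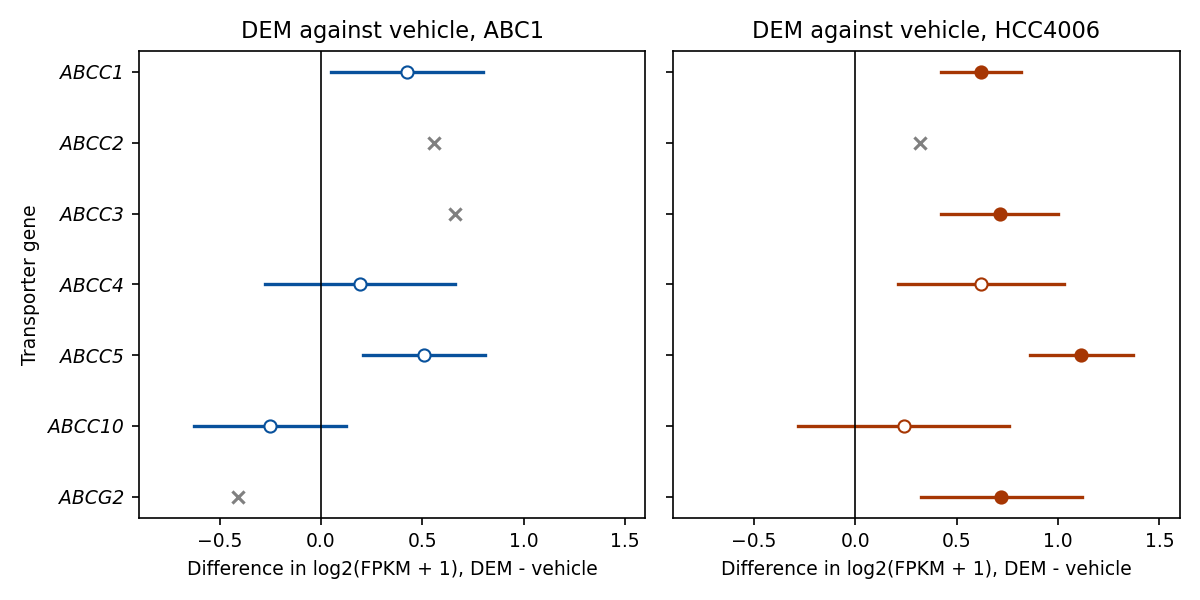
Difference between DEM and vehicle for each transporter on the log2(FPKM + 1) scale, by line, with 95% confidence intervals. Filled points are called genes, open points are tested genes that were not called, and crosses are genes under the minimum of 1 FPKM. In HCC4006 all values lie above 0 and *ABCC5* is the largest at 1.11. In ABC1 the values of *ABCC10*, which was not called, and *ABCG2*, which was under the minimum, lie below 0. No transporter was called by limma for a difference of responses between the lines.

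Whether the response to DEM differed between the lines was tested as the response in HCC4006 minus that in ABC1, in a model of all 8 libraries. None of the 6 transporters tested was called by limma, while of 13682 genes 0.307% were called higher in HCC4006, 0.329% lower and 0.636% in either direction, and 2068 had an unadjusted p under 0.05. Among the transporters, *ABCG2* and *ABCC5* had an unadjusted p under 0.05. *ABCG2* and *ABCC3* passed the minimum of 1 FPKM only through HCC4006, and in ABC1 all *ABCG2* libraries were under 1 FPKM. With that limit, the difference of responses of *ABCG2*, higher with DEM in HCC4006 and lower in the ABC1 libraries, was 1.13 (standard error 0.24, limma adjusted p = 0.0910). The value depended on the pseudocount, at 1.46 with 0.5 and 2.23 with 0.1, and over the alternatives the adjusted p was 0.0657 to 0.273. For *ABCC5* the difference was 0.60 (standard error 0.13, limma adjusted p = 0.0940), with a range of 0.0616 to 0.295. The differences of *ABCC1*, *ABCC4* and *ABCC10* were 0.20, 0.43 and 0.49, with limma adjusted p-values of 0.652, 0.462 and 0.493. With single libraries left out, the lowest of these differences were 0.08 for *ABCC1* and 0.27 for *ABCC4*, both without ABC1 vehicle replicate 0, and 0.25 for *ABCC10* without HCC4006 vehicle replicate 0, and the highest for *ABCC1* was 0.32 without ABC1 vehicle replicate 1. That of *ABCC3* was 0.05 (limma adjusted p = 0.968), and its sign turned with a smaller pseudocount.

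The transporters were set beside lists of related genes. For the counts below, the shares over all genes tested were 0.768% higher and 0.435% lower in ABC1. In HCC4006 these shares were 8.45% higher and 10.7% lower. Of 41 other ABC family genes, 19 were tested in ABC1 with no call by limma (5 had an unadjusted p under 0.05), and 18 were tested in HCC4006 with 3 called higher and none lower. *ABCB6*, a porphyrin transporter, rose there by 1.36 on the log2 scale, with 12.2 ± 1.94 FPKM (SD, n = 2) in the vehicle libraries and 33.0 ± 2.59 FPKM (SD, n = 2) in the DEM libraries. *ABCA4*, a transporter of retinoids, rose there by 0.55 on the log2 scale. The median over the list was 0.02 in HCC4006, beside 0.67 for the tested transporters. Because transporters and lists were chosen with earlier results of these data known, this contrast and those with the lists below are descriptions and not tests.

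Of 7 genes for glutathione supply, 5 were called higher in ABC1 and 6 in HCC4006, and *GCLC*, the catalytic subunit of glutamate-cysteine ligase, rose in HCC4006 to 387 ± 0.166 FPKM, compared with 83.5 ± 0.637 FPKM in vehicle libraries (SD, n = 2 each). The median log2 difference of this list was 1.41 in ABC1 and 1.44 in HCC4006. Of 33 conjugating enzymes, 13 were tested in ABC1 and 19 in HCC4006. Those called were *UGDH*, which makes UDP-glucuronate, in both lines, and *MGST1*, a microsomal glutathione transferase, in HCC4006, all higher. *UGDH* rose from 31.1 ± 7.19 to 137 ± 25.2 FPKM in ABC1 and from 210 ± 3.78 to 511 ± 29.3 FPKM in HCC4006 (SD, n = 2 each). The medians of the tested enzymes were -0.27 and -0.09, below the transporters' 0.31 and 0.67.

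Of 16 genes for the breakdown of glutathione and its conjugates, 7 were tested in ABC1 and 9 in HCC4006. *CHAC1* was called higher in both lines, and *GGCT* was called lower in HCC4006. Both encode γ-glutamylcyclotransferases. Of 6 genes for membrane anchors of transporters, 4 were tested in ABC1 and 5 in HCC4006, and none was called by limma in either line. Of 28 transporters outside the ABC family, 14 were tested in ABC1 with no call by limma, and 15 in HCC4006 with 2 called higher and 2 lower. *SLCO2A1*, a prostaglandin uptake transporter, fell in HCC4006 to 64.8 ± 7.66 FPKM, compared with 190 ± 17.5 FPKM in vehicle libraries (SD, n = 2 each), and its log2 difference was -1.54. *SLC29A1*, a nucleoside transporter, fell there to 21.3 ± 1.59 FPKM, compared with 37.2 ± 1.34 FPKM in vehicle libraries (SD, n = 2 each). Those called higher there were *ATP7A* and *SLCO4A1*. *ATP7A* rose to 7.56 ± 0.320 FPKM from 5.05 ± 0.204 FPKM (SD, n = 2 each), a log2 difference of 0.50 (limma adjusted p = 0.0341). Among 16 genes for transcription factors known for transporter genes and their regulators, 11 were tested in ABC1, where *KEAP1* was called higher. In HCC4006, 12 were tested and 7 called higher, namely *HIF1A*, *KEAP1*, *MAFF*, *MAFG*, *MAFK*, *NFE2L2* and *PPARA*. *MAFG*, a small MAF protein that pairs with NRF2, had a log2 difference of 1.67 there.

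**Figure D4:**
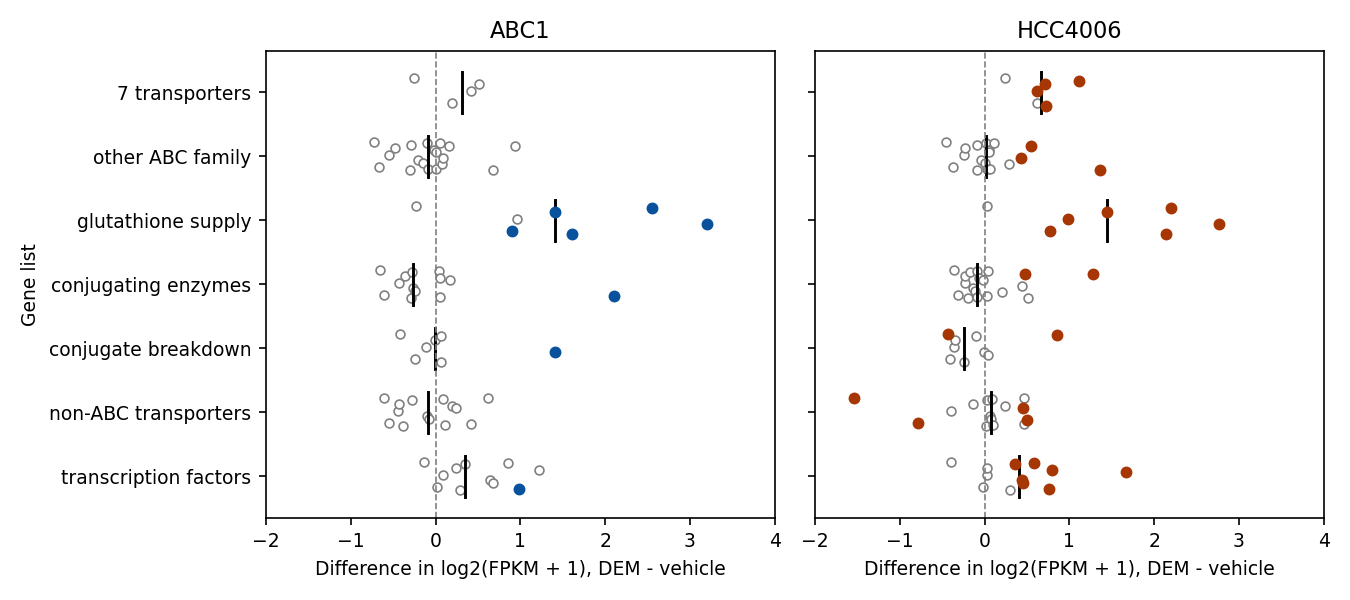
Log2 difference of each tested gene between DEM and vehicle, by list and line, on the log2(FPKM + 1) scale, with filled points for called genes, open points for the others and a vertical bar at each median. Of the lists shown, glutathione supply has the highest median in both lines (1.41 and 1.44), and the other ABC family genes centre near 0 (median 0.02 in HCC4006).

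The genes whose pattern was most like that of each transporter were found by Pearson's r of log2(FPKM + 1) over the 8 libraries, among 10873 genes. The points share 2 lines and 2 treatments, so r follows the line above all, and it is given as a description. The highest values were 0.998 for *ADGRG1* with *ABCC1*, 0.9997 for *NOS3* with *ABCC3*, 0.964 for *PLEC* with *ABCC4*, 0.999 for *TRPV3* with *ABCC5*, 0.922 for *PRR5-ARHGAP8* with *ABCC10* and 0.996 for *IBTK* with *ABCG2*. *ABCC2* had a mean under 1 FPKM and was not compared. Lower values were seen for *ABCC4* and *ABCC10*, which differed least between the lines among the transporters compared. The genes next in order were *KLC1* and *SETDB2* for *ABCC1*, *LRRFIP1* and *TFPI* for *ABCC3*, *ARHGAP21* and *PAFAH1B2* for *ABCC5*, and *FOXO3* and *ZNF593* for *ABCG2*.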

How the data were processed

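Libraries of polyadenylated RNA were prepared with a strand-specific kit and sequenced in paired ends, as the study's methods state. The methods name TopHat and Cufflinks on hg19, whereas the submitters' processing notes list bcl2fastq 2.15.0, cutadapt 1.15, STAR 2.5.3a, SAMtools, Cuffnorm, HTSeq, DESeq2 and R 3.2.0, without roles. The strand setting of the counting is not given in the sources used here. The authors deposited FPKM values for each of 57815 identifiers in 8 libraries. The authors also deposited a table per line with a base mean, a signal of scaled counts averaged over the line, and with fold changes and p-values of their own comparison, which were not used. Symbols were found for 55534 identifiers.

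FPKM values were tested as log2(FPKM + 1) with limma 3.58.1 in R 4.3.3, with the prior variance as a trend of the mean. Genes averaging under 1 FPKM over the libraries fitted were left out. P-values were adjusted by Benjamini-Hochberg over all genes tested, and genes under 0.05 were called. Each line was fitted alone, the difference of responses over 8 libraries and the lines over the 4 vehicle libraries. From each related list, up to 3 called genes of largest change, with groups that did not overlap, were named per line. The values of 1 called gene of the other ABC family list are not reported here. Other genes named from the lists were chosen after their values were seen. The transporters and lists were chosen with earlier results of these data known. Scripts were tested on simulated data. Alternatives were other pseudocounts, no expression minimum, other scalings, no trend, all 8 libraries, a replicate block and each library left out. Positions are those of GENCODE on GRCh37.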

Additional observations from a re-analysis of the deposited data

How the results depend on the processing

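With 2 libraries a group, calls depended on single libraries and on the expression minimum. In HCC4006, 4 transporters were called higher. With each library left out in turn the count was 2 to 3, and without the expression minimum it was 0. That setting raised the number of genes tested from 13542 to 30580, and the p-values before adjustment rose as well, for *ABCC5* from 3.9e-05 to 7.7e-04. The cause was not tested. In ABC1 the count called higher was 0, and it was 1 (*ABCC5*) in the model of all 8 libraries. For the vehicle groups, 1 transporter was called higher in ABC1, and with upper-quartile scaling there were 3 (*ABCC4*, *ABCC5* and *ABCC10*). That scaling moved the median difference of all genes from 0.07 to -0.10, and the calls from 5121 higher and 4184 lower in HCC4006 to 4432 and 5228. Scaling by the median of ratios changed the calls with DEM in HCC4006 from 1144 higher and 1447 lower to 1291 and 1231. The labels do not pair the replicate numbers, and same-numbered libraries deviated together with a correlation of 0.258 in ABC1 and 0.0544 in HCC4006. With a replicate block, 1 transporter was called higher in ABC1 (*ABCC5*), and 2 were called higher in ABC1 than in HCC4006 with vehicle (*ABCC5* and *ABCC10*). The block changed no other call of a transporter.

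The difference of responses of *ABCC3* was 0.05, but -1.39 with a pseudocount of 0.1 and -0.32 with 0.5, and it ranged from -0.31 to 0.41 with a library left out, with values of -0.05, -0.31, -0.06 and -0.08 below 0. Of the other values of single transporters under the alternatives, 266 kept their direction and side of the threshold, 7 gained a call and 11 lost one. Over all genes, calls with DEM in ABC1 were 97 higher and 55 lower, and 0 and 0 without the minimum (3883 had an unadjusted p under 0.05), 158 and 93 with the median of ratios, 27 and 6 without the trend, 738 and 756 in the model of all 8 libraries, 1185 and 1163 with the block, and 10 to 51 higher with a library left out. In HCC4006 they were 177 and 193 without the minimum, 706 and 847 in the model of all 8 libraries, and 290 to 464 higher with a library left out. The difference of responses gave 42 higher and 45 lower calls, and 11 and 9 or 24 and 27 with the smaller pseudocounts, 173 and 230 without the minimum, 5 and 8 with the block, and 0 to 17 higher with a library left out. For the vehicle groups, calls higher in HCC4006 fell to 3055 when 1 HCC4006 library was left out.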
